A study of Mus musculus with 2 samples.

Results

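The Toll-like receptors of the mouse other than Tlr4 were described in primary and in self-renewing macrophages, together with Unc93b1, the chaperone of the receptors that sit inside the cell. The members were Tlr1, Tlr2, Tlr5 and Tlr6, taken as surface receptors, Tlr3, Tlr7, Tlr8, Tlr9 and Tlr13, taken as endosomal receptors, and Unc93b1. They were found by the transcript accession of their array probes and are 10 of 22910 named genes with a probe. They were chosen by family and location in the cell and not by a measured value, though earlier results of these data were known at the time. All 10 were well above background on both arrays, with 15 probes in all, of which 14 were well above background on both arrays and 1 on 1 array.

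The study asked what sets apart macrophages that keep dividing in culture, and RNA of 1 sample of each kind was hybridised to 1 Agilent array with 1 dye. Both samples came from bone marrow of C57BL/6 mice, labelled male, with no age or transgene given. Both grew in RPMI1640 medium with rhM-CSF (recombinant human M-CSF, the growth factor of macrophages) at 100 ng/ml and with heat-inactivated FCS at 10%. The primary macrophages were taken at day 5 according to the label, from a culture described as lasting 5 to 7 days, and the self-renewing macrophages after passage 4, where growing colonies had replaced most of the first cells. The self-renewing cells were described as bulk cells and not clones, and no treatment with a receptor ligand is named for either sample. Whether both came from the same mice is not given in the sources used here. Their sex-linked genes, given below, were unlike, as between a female and a male donor. With 1 array a group there is no spread between replicates, so no difference below was tested, and each is the difference between these 2 samples.

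Toll-like receptors are membrane proteins that bind conserved parts of microbes through leucine-rich repeats and signal through a TIR domain inside the cell. The surface receptors meet bacterial lipoproteins and flagellin, while the endosomal receptors meet nucleic acids and depend on Unc93b1 to leave the endoplasmic reticulum, and on proteases of the endolysosome to become active. Nearly all signal through the adaptor Myd88, while Tlr3 uses Ticam1, also called TRIF. Macrophages carry many of these receptors, and the mixture they carry sets which microbial products they can sense.

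Sample quality touched the members as follows. Both samples are labelled male, but of 4 Y-linked genes 0 were well above background in the sample labelled primary and 4 in the self-renewing one, and Xist, transcribed from the inactive X chromosome, had an intensity of 487 in the primary and 2.96 in the self-renewing sample. The primary sample therefore went against its label. For every member, a difference of donor cannot be told apart from the difference in culture, and Tlr7, Tlr8 and Tlr13 are also X-linked. Of the 9 macrophage markers looked at, among them Csf1r, Adgre1 and Cd68, all 9 were well above background on both arrays. Background-corrected intensities were compared on the log2 scale relative to each array's 75th percentile, which stood at 434 and 446, and no spot was saturated.

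Among the 15516 named genes with signal well above background on 1 array or both, 4.76% had at least 2-fold more signal in the self-renewing macrophages, 8.38% at least 2-fold less, and 13.1% either. Of the 10 members, 3 were at least 2-fold higher (Tlr2, Tlr3 and Tlr8), 2 at least 2-fold lower (Tlr5 and Tlr7) and 5 within 2-fold, so that 5 of 10 (50%) were past 2-fold. With the model-based background correction named normexp, which compresses dim signals, Tlr3 and Tlr8 were under 2-fold and 3 of 10 members were past it. Genes past 2-fold also became fewer among all 15516, with 429 up and 750 down under normexp beside 739 and 1300 without it. The median of the members was -0.07 log2 and that of all genes -0.02 log2, while the median size of the difference, whatever its direction, was 0.83 log2 (1.78-fold) for the members and 0.30 log2 (1.23-fold) for all genes. The members past 2-fold went in both directions, while Tlr6, Tlr9 and Tlr13 differed by less than the median gene. In RNA of whole cultures, fewer cells of a type and less RNA per cell cannot be told apart.

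**Figure D1:**
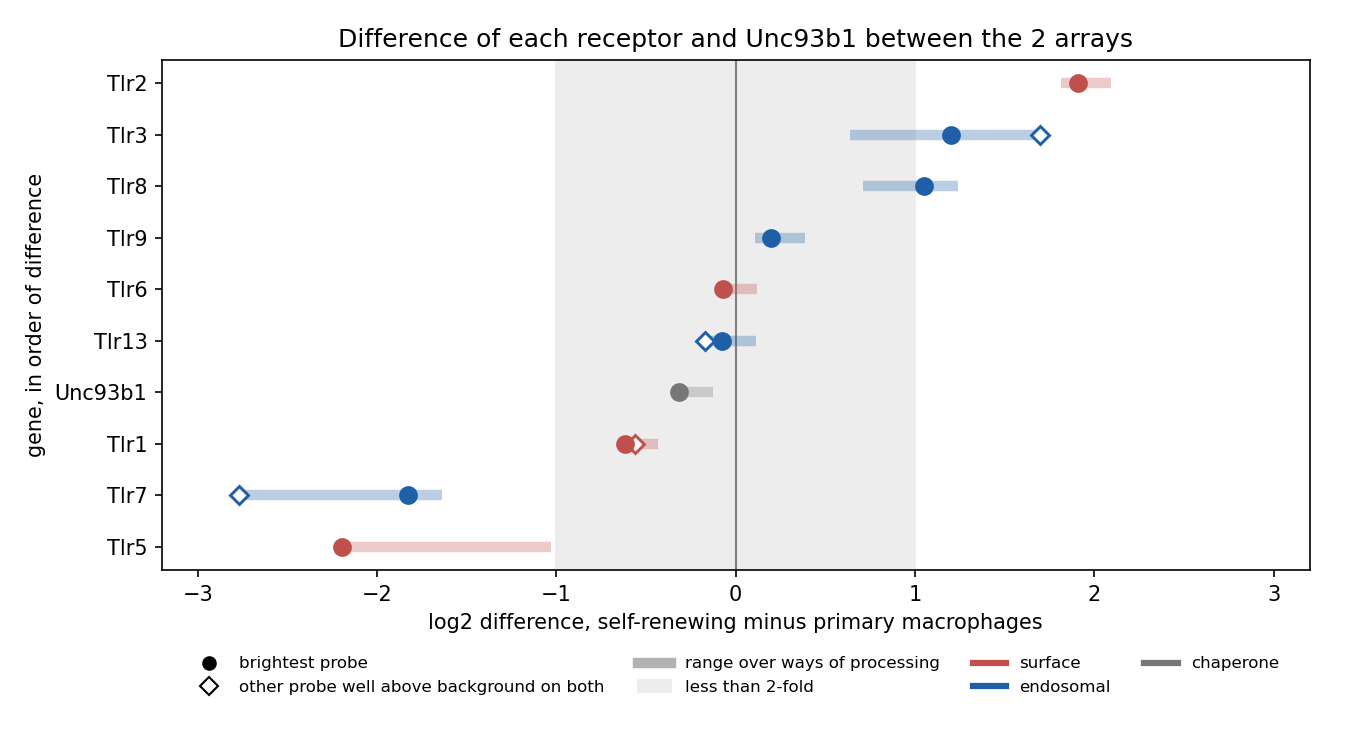
Difference of each member between self-renewing and primary macrophages, in log2 units, with surface receptors, endosomal receptors and Unc93b1 in separate colours. Circles are the brightest probe of a gene, diamonds its other probes well above background on both arrays, bars the range over the other ways of processing the arrays, and the grey band marks differences under 2-fold. Tlr2 at 1.91, Tlr3 at 1.20 and Tlr8 at 1.05 lie to the right of the band, and Tlr7 at -1.83 and Tlr5 at -2.19 to the left.

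Tlr2 pairs with Tlr1 to bind triacylated lipoproteins and with Tlr6 to bind diacylated ones, so the 3 genes encode the parts of 2 receptors. The intensity of Tlr2 was 2728 in primary and 10526 in self-renewing macrophages, 3.75-fold higher in the latter after scaling, or 1.91 log2 with an error of 0.20 log2 from the scanner software's own estimate for the 2 spots. That estimate covers the reading of a spot only, and was 0.20 to 0.25 log2 over the probes that represent the members. It was 10% to 14.2% of the intensity of these probes, at or near 10% for every bright one. It is not a spread between repeated measurements. Neither partner was higher in the scaling used here. Tlr1 had an intensity of 1949 in primary and 1305 in self-renewing macrophages, 1.54-fold lower, and its second probe, at 1226 and 853, was 1.48-fold lower. Tlr6 had an intensity of 1105 and 1084, a difference of -0.07 log2 that is smaller than the scanner's error and turned to 0.12 log2 with the authors' own scaling. The difference of Tlr2 exceeded that of Tlr1 by 2.53 log2 and that of Tlr6 by 1.98 log2, while probes of the same gene differed by a root mean square SD of 0.33 log2 over 5077 genes on these arrays.

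Tlr5, the receptor of bacterial flagellin, was the surface receptor that was at least 2-fold lower in the self-renewing macrophages. Its intensity was 118 in primary and 26.5 in self-renewing macrophages, a difference of -2.19 log2 with a scanner error of 0.25 log2, or 4.58-fold lower. On the self-renewing array the spot lay near the floor, as the lowest intensity well above background there was 13.2. With the normexp correction the difference was -1.03 log2. Of the 4 surface receptors, 1 was thus at least 2-fold higher, 1 at least 2-fold lower and 2 within 2-fold, with a median of -0.34 log2 and a range of 4.10 log2.

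**Figure D2:**
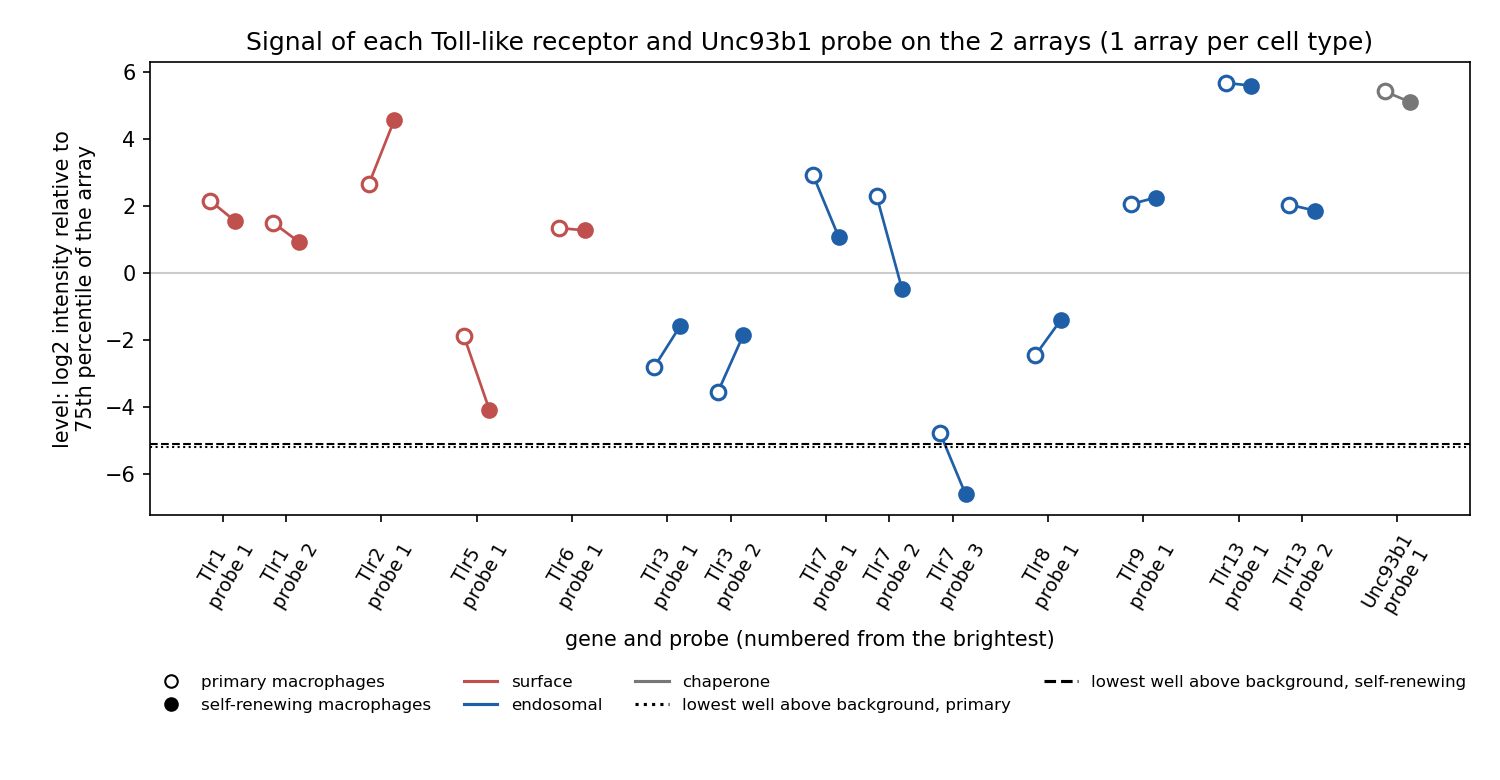
Signal of every member probe in primary and in self-renewing macrophages, as log2 of the background-corrected intensity relative to the 75th percentile of the array. Each line joins the 2 values of a probe, and only the slope of a line can be read, since heights of different probes are not comparable. Dotted and dashed lines mark the lowest signal well above background on the primary and the self-renewing array. The steepest lines are those of Tlr2, which goes from 2.65 to 4.56, Tlr5, which goes from -1.88 to -4.07, and the Tlr7 probes.

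Of the endosomal receptors, Tlr3, the receptor of double-stranded RNA, was higher in the self-renewing macrophages by both probes. The first had an intensity of 62.8 in primary and 148 in self-renewing macrophages, 1.20 log2 or 2.29-fold higher, and the second 37.3 and 124, 3.25-fold higher. The 2 probes moved the same way and differed by 0.50 log2. Tlr8, a close relative of Tlr7, was measured by 1 probe with an intensity of 79.6 and 169, 1.05 log2 or 2.07-fold higher in the latter. Both genes gave dim signals, and with the normexp correction Tlr3 stood at 0.64 log2 and Tlr8 at 0.71 log2, under 2-fold.

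Tlr7, the receptor of single-stranded RNA, went the other way. Its brightest probe had an intensity of 3284 in primary and 950.2 in self-renewing macrophages, a difference of -1.83 log2 or 3.56-fold lower. A second probe, at 2133 and 321, was 6.83-fold lower, so that the 2 probes differed by 0.94 log2 in size but not in direction. One more probe, matched to another transcript, passed the background flag in primary macrophages only, at 15.8, and was at least 1.24-fold lower. The difference of Tlr7 less that of Tlr8 was -2.88 log2. Both genes are endosomal, X-linked and next to each other in the gene table. Over all X-linked genes the median was -0.07 log2 (506 genes, 4.74% at least 2-fold higher and 11.1% lower) and over autosomal genes -0.02 log2 (15002 genes, 4.73% and 8.29%). The part of the samples' unlike sex-linked genes in the difference of Tlr7 was not tested.

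The other endosomal receptors and their chaperone differed little. Tlr9, the receptor of unmethylated CpG DNA, had an intensity of 1809 in primary and 2136 in self-renewing macrophages, 0.20 log2 or 1.15-fold higher, as large as its scanner error. Tlr13, a receptor of bacterial ribosomal RNA, had an intensity of 22224 and 21662, a difference of -0.08 log2, with -0.17 log2 by its second probe. That value changed sign with quantile normalization, to 0.01 log2, and with the authors' scaling, to 0.11 log2. Unc93b1 had an intensity of 18670.4 and 15428, a difference of -0.32 log2 by 1 probe. Signals of Tlr13 and Unc93b1 were thus high above background in both samples, and neither reached 2-fold.

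The 5 endosomal receptors had a median of 0.20 log2 and a range of 3.03 log2, with 2 at least 2-fold higher and 1 lower. Their median exceeded that of the surface receptors by 0.54 log2, which is small beside the range within either class, and each class held receptors past 2-fold in both directions. Without the X-linked Tlr7, Tlr8 and Tlr13, only Tlr3 and Tlr9 remained. Their median was 0.70 log2 and exceeded the surface median by 1.04 log2. Ordered by their difference, the members ran from Tlr2 through Tlr3, Tlr8, Tlr9, Tlr6, Tlr13, Unc93b1, Tlr1 and Tlr7 to Tlr5. Gaps between neighbours in this order exceeded 0.33 log2, the SD between probes of a gene, at 4 places only. These were between Tlr2 and Tlr3 (0.71), Tlr8 and Tlr9 (0.85), Tlr1 and Tlr7 (1.21), and Tlr7 and Tlr5 (0.36), in log2 units. That SD is no limit for a gap between genes, and the order of Tlr7 and Tlr5 was not settled. Tlr7 stood at -2.77 log2 by its second probe, and with normexp Tlr5 stood at -1.03 and Tlr7 at -1.75 log2. For the 4 members with 2 or more probes well above background on both arrays, Tlr1, Tlr3, Tlr7 and Tlr13, all probes of a gene lay in one direction, while the other 6 rest on 1 probe each. Tlr4, given for comparison, was 1.26-fold higher by its brighter probe and differed by -0.07 log2 by the other, and Tlr11 and Tlr12 were well above background on neither array.

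Promoter sequences are shown for the receptors past 2-fold that have an entry in the RefSeq promoter table of GRCm38.p6, since these are the members whose RNA differed most. The table matched 8 of the 10 members, all but Tlr7 and Unc93b1. Each line gives the 250 bases before the annotated start of transcription, 5′ to 3′ on the strand of the gene, at chr3:83841609-83841858 (minus strand) for Tlr2, chr8:45410381-45410630 (minus) for Tlr3, chrX:167264330-167264579 (minus) for Tlr8 and chr1:182954538-182954787 (plus) for Tlr5. Capitals mark matches, on either strand, to the NF-kB consensus, to the PU.1 core GAGGAA, to the interferon response element (GAAA, any 2 bases, GAAA), to the AP-1 site TGANTCA, to the GC box GGGCGG or to the TATA box TATAAA.
Tlr2: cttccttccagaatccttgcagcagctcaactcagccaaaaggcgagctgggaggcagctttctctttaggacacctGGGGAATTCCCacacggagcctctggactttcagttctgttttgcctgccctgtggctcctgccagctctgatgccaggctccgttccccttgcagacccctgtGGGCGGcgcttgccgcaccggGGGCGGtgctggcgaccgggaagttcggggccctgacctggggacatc
Tlr3: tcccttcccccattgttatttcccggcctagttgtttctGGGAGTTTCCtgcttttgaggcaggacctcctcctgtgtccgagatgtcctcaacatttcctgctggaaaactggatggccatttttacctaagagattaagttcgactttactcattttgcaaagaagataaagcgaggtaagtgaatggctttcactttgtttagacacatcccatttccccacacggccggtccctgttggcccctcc
Tlr8: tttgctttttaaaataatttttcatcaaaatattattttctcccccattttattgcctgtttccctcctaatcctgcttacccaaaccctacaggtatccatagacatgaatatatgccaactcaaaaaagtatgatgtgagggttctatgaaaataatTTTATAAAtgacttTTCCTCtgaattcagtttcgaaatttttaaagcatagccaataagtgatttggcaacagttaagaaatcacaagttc
Tlr5: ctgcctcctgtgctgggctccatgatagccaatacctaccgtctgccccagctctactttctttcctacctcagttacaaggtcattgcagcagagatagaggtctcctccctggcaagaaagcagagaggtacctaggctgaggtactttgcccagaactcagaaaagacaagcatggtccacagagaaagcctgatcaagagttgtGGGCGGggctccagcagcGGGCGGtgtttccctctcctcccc
Tlr2 held 2 overlapping matches to the NF-kB consensus, beginning 173 and 172 bases before the start, and 2 GC boxes at 69 and 48. Tlr3 held 1 match to the NF-kB consensus at 211 bases. Tlr8 held a PU.1 core on the opposite strand at 77 bases and overlapping TATA boxes of both strands at 89 and 91. Tlr5 held 2 GC boxes, at 42 and 24 bases. Among all 32851 promoter windows of the table, the NF-kB consensus was found in 7.25%, the PU.1 core in 23.3%, the interferon response element in 2.98%, the AP-1 site in 6.75%, the GC box in 32.7% and the TATA box in 12.4%. These are matches of letters, and no binding was measured.

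The genes around the receptors were read from lists ordered by role, 110 genes in all without the members, of which 101 had signal well above background on 1 array or both. In the self-renewing macrophages, 11 of these 101 (10.9%) were higher by 2-fold or more and 13 (12.9%) lower, with a median of 0.11 log2. Over all genes above background the shares were 4.76% higher and 8.38% lower, beside which the counts of the lists below should be read. Among 18 genes of folding, trafficking and cleavage, counting Unc93b1, 0 were at least 2-fold higher and 3 lower, with a median of -0.02 log2. The chaperones Hsp90b1 (-0.03 log2) and Cnpy3 (0.23 log2), the adaptor subunit Ap3b1 (-0.05 log2) and the transporter Slc15a4 (-0.02 log2) differed little. The endolysosomal proteases were unequal. Lgmn had an intensity of 80869 in primary and 21715 in self-renewing macrophages, 3.83-fold lower, and Ctsl 137754 and 40108, 3.53-fold lower, while Ctsb (-0.11 log2) and Ctss (0.07 log2) differed little and Ctsk was 1.80-fold higher. Also past 2-fold was Rab7b, a small GTPase of late endosomes, at 2.05-fold lower.

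Of 12 co-receptors and genes of ligand supply above background, 9 were lower and 3 higher in the self-renewing macrophages by any amount, 0 were at least 2-fold higher and 2 lower, with a median of -0.52 log2. Cd36, a scavenger receptor that serves the pair of Tlr2 and Tlr6, had an intensity of 16308 in primary and 2273 in self-renewing macrophages, 7.38-fold lower, opposite to Tlr2. Ly86, also called MD-1, the partner of Cd180, differed by -7.47 log2. Cd14, a co-receptor of several members, was 1.60-fold lower by its brighter probe.

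**Figure D3:**
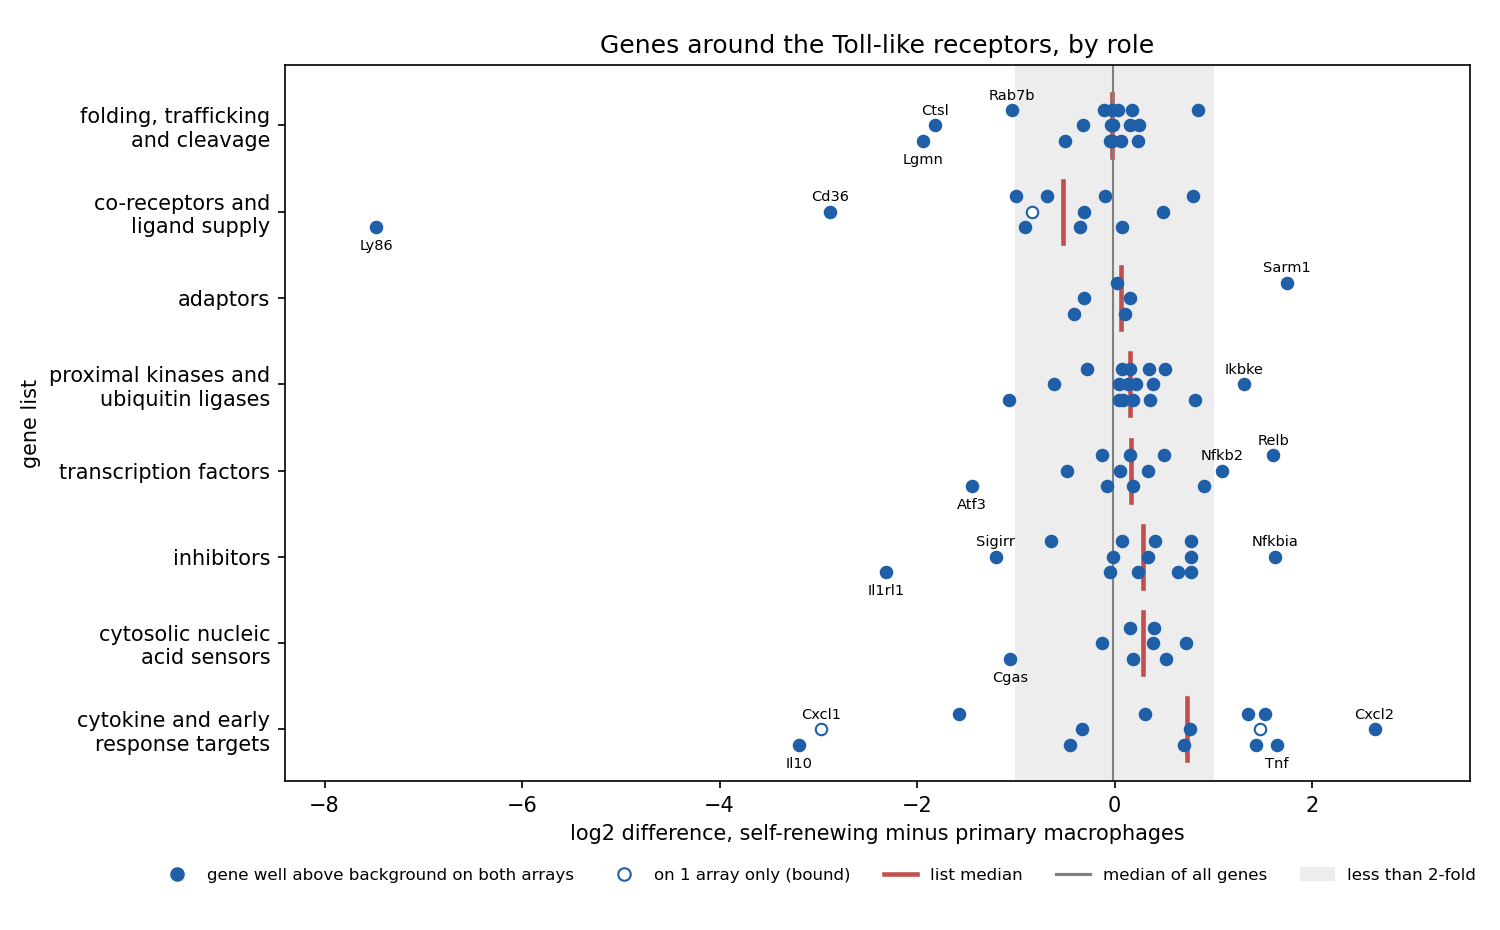
Difference between self-renewing and primary macrophages of each gene in the lists around the receptors, in log2 units, 1 row a list. Filled points are genes well above background on both arrays, open points are bounds of genes above it on 1 array, red bars are list medians, and the grey band marks differences under 2-fold. Most adaptors and kinases lie within the band, and Ly86 at -7.47 and Cxcl2 at 2.63 are the ends of the plot.

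Downstream of the receptors most genes lay within 2-fold. Of 6 adaptors, 1 was past 2-fold, namely Sarm1, a negative regulator of Ticam1, at 3.35-fold higher with a dim signal, while Myd88 (0.16 log2), Tirap (-0.41 log2) and Ticam1 (-0.30 log2) were not. Of 17 proximal kinases and ubiquitin ligases, 1 was higher and 1 lower, with a median of 0.16 log2. The lower one, Peli2, was dim, at 90.3 in primary and 44.4 in self-renewing macrophages, and its other probe differed by 0.04 log2. Ikbke, a kinase that acts on interferon regulatory factors, was 2.49-fold higher, Irak1 (0.16 log2) and Irak4 (0.36 log2) lay within 2-fold, and for Traf6 the 2 probes went opposite ways, at -0.61 and 0.32 log2. Of 12 transcription factors, 2 were higher, Relb at 3.05-fold and Nfkb2 at 2.13-fold, both of the non-canonical NF-kB pathway, and 1 lower, Atf3 at 2.72-fold, with a median of 0.17 log2. Irf3 differed by 0.06 log2, Irf5 by -0.13 log2 and Irf7 by 0.91 log2.

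Of 14 inhibitors of the pathway, 1 was at least 2-fold higher and 2 lower, with a median of 0.29 log2. Nfkbia, the NF-kB inhibitor that NF-kB itself induces, was 3.09-fold higher, while the receptor-like inhibitors Il1rl1 and Sigirr were 4.96-fold and 2.30-fold lower. Of 8 sensors of nucleic acids in the cytosol, 0 were higher and 1 lower, Cgas at 2.08-fold, with a median of 0.29 log2. Of 18 cytokines and early response genes that the receptors can induce, 14 were detected on 1 array or both, 6 at least 2-fold higher and 3 lower, with a median of 0.73 log2. Cxcl2 was 6.21-fold higher and Tnf 3.13-fold higher, with an intensity of 1052 in primary and 3387 in self-renewing macrophages, while Il10 was 9.18-fold lower and Cxcl1, above background in primary macrophages only, at least 7.83-fold lower. Il6, Il1a, Il12a and Ifnb1 were well above background on neither array. Neither sample had a named stimulus, so these are levels in culture with M-CSF.

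Other bone marrow cells carry the same receptors, and their markers differed between the samples. Of 9 neutrophil markers above background, 7 were at least 2-fold lower in self-renewing macrophages and 0 higher, 4 of the 9 were above background in primary macrophages only, and their summed level, in multiples of the 75th percentile, was 119 in primary and 6.56 in self-renewing macrophages. S100a9, the calcium-binding protein that neutrophils make in bulk, had an intensity of 25450 in primary and 4.26 in self-renewing macrophages. Most of the sum in self-renewing macrophages was Elane, with an intensity of 3602 in primary and 2671 in self-renewing macrophages, 1.39-fold lower. Such sums weigh the brightest probes most. Of 5 conventional dendritic cell markers 2 were lower and 0 higher, with summed levels of 13.0 and 1.74. Most of either sum was Itgax, 8.93-fold lower. Xcr1 and Clec9a were well above background on neither array. Zbtb46 was above background on both, where it was dim at 26.2 in primary and 41.5 in self-renewing macrophages, 1.54-fold higher. Flt3 and Cd209a were above background in primary macrophages only, also dim, at 17.0 and 20.0. Of 7 plasmacytoid dendritic cell markers, a cell type known for Tlr7 and Tlr9, 2 were higher and 2 lower, with summed levels of 226 and 250.2. Most of that sum was Siglech, with an intensity of 83903 in primary and 91973 in self-renewing macrophages. Cox6a2 was 3.69-fold higher and Tcf4 2.13-fold higher by its brightest probe. Ly6d and Spib were above background in primary macrophages only, where both were dim, at 33.5 and 25.9. Of 4 B cell markers 1 was lower and 0 higher, with summed levels of 3.15 and 1.54. The lower one, Cd79b, was above background in primary macrophages only, at 696, the brightest of the 4 there. Cd22, at 565 and 572, Pax5, at 89.8 and 90.4, and Cd79a, at 15.5 and 21.3, were above background on both arrays and within 2-fold. Ms4a1 was above background on neither array.

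Among markers nearer to the macrophage, monocyte markers had 2 of 5 higher and 1 lower, with summed levels of 32.3 and 84.6, where Ly6c2 was 5.67-fold higher and Ccr2 differed by -6.64 log2. Macrophage markers had 1 of 9 higher, Mertk, and 1 lower, Fcgr1, with summed levels of 878 and 1198. Osteoclast markers had 3 of 6 lower and 0 higher, with summed levels of 12.5 and 0.816. Of the mast cell and basophil markers 4 were above background, 1 lower, with summed levels of 0.217 and 0.129, and of the stromal markers 1, at 0.122 and 0.197. The part of these other cells in the differences of Tlr2, Tlr3, Tlr5, Tlr7 and Tlr8 was not tested.

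**Figure D4:**
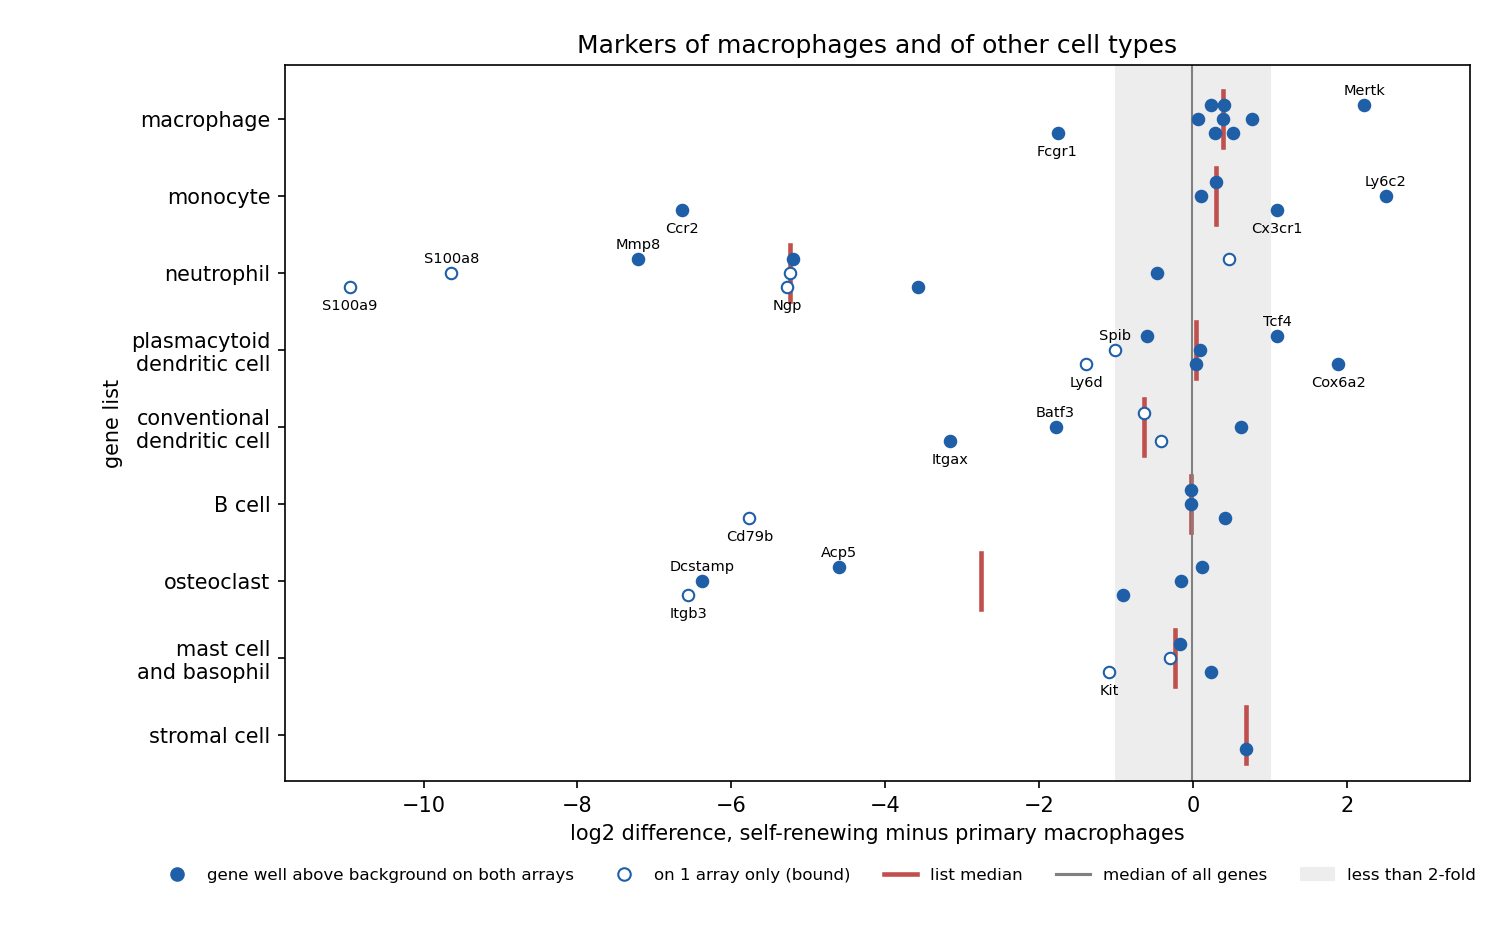
Difference between self-renewing and primary macrophages of markers of macrophages and of other cells, in log2 units, 1 row a cell type. Filled points are genes well above background on both arrays, open points are bounds of genes above it on 1 array, and red bars are list medians. The macrophage markers lie within the grey 2-fold band apart from Mertk and Fcgr1, with a median of 0.39, while 7 of 9 neutrophil markers lie to the left of that band, down to -10.96 for S100a9.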

How the data were processed

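Agilent SurePrint G3 mouse arrays with 1 dye were hybridised with RNA of 1 sample of primary and 1 sample of self-renewing macrophages. The authors deposited the output of Feature Extraction 11.5.1.1, which gives the intensity of each spot raw and after background subtraction within the array, with flags for saturation, for outlier spots and for signal well above background. They also deposited a table of these intensity values times 1 constant an array, 1.07 and 1.19. How the constants were chosen is not given in the sources used here.

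Log2 of the background-corrected intensity less the 75th percentile of the array's gene probes was computed here. Control spots were left out, as were 63 outlier spots an array, and repeated spots of a probe were averaged. The background flag was passed by 34808 of 56598 probes on the primary and 33095 on the self-renewing array. Through their accessions, 32988 (58.3%) were matched to the GRCm38.p6 gene table. The array was designed on an earlier assembly, so no probe coordinates are given, and those of the promoters are from the GRCm38.p6 promoter table. The detected probe of highest mean signal represented a gene. A bound, worded as at least N-fold, is given for a gene detected on 1 array only. It compares the detected signal with whichever is higher on the undetected side, the probe's own signal or the lowest signal flagged as well above background. The threshold of 2-fold was chosen here, and the number of arrays limits the precision.

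Named are all members, the genes with a set role for them, and up to 4 genes a list with the largest difference of at least 2-fold and no probe moving the other way. Members and lists were chosen with earlier results of these data known, and 1 marker gene is not reported here. The targets that were not detected are named besides, as are Mertk, Siglech, Elane and Peli2. So are the marker genes Xcr1, Clec9a, Zbtb46, Flt3, Cd209a, Ms4a1, Cd22, Pax5, Cd79a, Csf1r, Adgre1 and Cd68. The alternatives were 2 other scalings, quantile normalization, the authors' scaled values, normexp with an offset of 50 on the median spot and local background signals (the files hold no mean signal), no filter on background, only probes above background on both arrays, the mean over probes and, added after the data were seen, the dimmest detected probe and the endosomal values without X-linked receptors. The scaling and the 2-fold count were tested on simulated data. These held no gene detected on 1 array only, so the bounds were not tested. The genes changed in them had more signal in primary macrophages than Tlr3 and Tlr8. Python 3.11.15, numpy 2.4.6, pandas 2.3.3, matplotlib 3.10.9, R 4.3.3 and limma 3.58.1 were used.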

Additional observations from a re-analysis of the deposited data

How the results depend on the processing

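The count of members at least 2-fold lower was 2 under all 9 alternatives, and the count at least 2-fold higher was 3 under all but normexp, where it was 1, Tlr2. Without the X-linked receptors, an alternative chosen after seeing the data, the endosomal median rested on Tlr3 and Tlr9 only. It was 0.70 log2 and exceeded the surface median by 1.04 log2. Over the 9 alternatives, Tlr2 ranged from 1.81 to 2.09 log2, Tlr3 from 0.64 to 1.70, Tlr5 from -2.21 to -1.03, Tlr7 from -2.77 to -1.64 and Tlr8 from 0.71 to 1.24. Of 90 values of single members, 85 stayed within the SD between probes and 5 did not, and of 162 list medians 12 moved by more. Many of the 90 were fixed in advance. The settings of the background filter kept the same probe of every member, so neither its value nor the counts of members could change there. For the 6 members with 1 probe, the mean over probes and the dimmest probe gave the main value. Over all genes, 429 were at least 2-fold higher and 750 lower with normexp, 1192 and 2336 with no filter on background, and 588 and 782 with the filter applied to both arrays. With the authors' scaled values all genes shifted by 0.19 log2, so that 1035 were higher and 1069 lower, 49.2% of those past 2-fold being higher against 36.2% in the scaling used. No paired analysis was possible because each group has 1 array, and for the same reason no replicate could be left out. Dim signals limit Tlr5, Tlr3 and Tlr8, which lay nearest to the background.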

Other observations

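The genes on either side of each member in the gene table, up to 5 measured genes a side, had medians from -0.30 log2 (around Unc93b1) to 0.23 log2 (around Tlr1), beside -0.02 log2 for all genes. Tlr2 (1.91 log2) had 10 such neighbours with a median of -0.18 log2, from Mnd1 at -1.96 to Trim2 at 1.25 log2. The 10 neighbours of Tlr5 (-2.19 log2) had a median of -0.13 log2 and lay between -0.86 and 0.48 log2. Around Tlr3 (1.20 log2) the median was -0.12 log2, with Fam149a at -3.04 log2. Tlr7 and Tlr8 lie side by side and have 9 such neighbours each, 8 of them in common, with a median of 0.00 log2 for either gene, from Arhgap6 at -1.40 to Prps2 at 0.46 log2. Tlr1 and Tlr6 are also neighbours, and the genes around Tlr6 had a median of 0.21 log2. These genes were named for their place after their values were seen, and no test was made.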
